A study of Homo sapiens with 18 samples.

Results

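The cyclin and CDK genes of the cell cycle were followed in C4-2B cells, a human prostate cancer cell line, treated with an inhibitor of the mitotic kinase AURKA, an inhibitor of PARP, or both. The members were 10 genes found by name in the count and FPKM tables of both time points, of 20258 genes present in both count tables, and all 10 were measured and tested. They were taken in 3 groups by the phase in which their products are known to act. CCND1, CCND3 and CDK4 act in G1, CCNE1, CCNE2 and CDK2 at the passage from G1 into S phase, and CCNA2, CCNB1, CCNB2 and CDK1 from S phase to mitosis. Poly(A) RNA was sequenced in 18 libraries of 6 groups, with 3 libraries per group. After 2 days the groups were DMSO vehicle (VEH_2d) and 0.1 μM of the AURKA inhibitor VIC-1911 (VIC_2d). After 7 days they were vehicle (VEH_7d), 0.1 μM of VIC-1911 (VIC_7d), 1 μM of the PARP inhibitor olaparib (OLA_7d), and VIC-1911 and olaparib at these doses together (COMBO_7d). All groups were wild-type cells of this 1 line grown in serum-containing medium. The labels do not say that the libraries of a group came from separate cultures, so the p-values measure the spread between these libraries, which may be technical.

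Cyclins are the regulatory partners of the cyclin-dependent kinases. The D cyclins activate CDK4 in G1 in response to growth signals, cyclin E with CDK2 starts DNA replication, cyclin A2 serves S phase and G2, and the B cyclins with CDK1 drive entry into mitosis. The messenger RNAs of the S to M members are made mainly in S phase and G2 and are repressed in resting cells, whereas CCND1 and CDK4 are transcribed through much of the cycle. AURKA acts at the centrosome and spindle and helps activate CDK1 with cyclin B, and PARP inhibition leaves DNA breaks that are dealt with in S phase and G2. In bulk RNA, fewer cells in a phase and less RNA per cell cannot be told apart, which holds for each result that follows.

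Between 3245273 and 7184420 reads per library were counted on genes after 2 days, and between 4967931 and 19684208 after 7 days, the lowest in OLA_7d replicate 1. Every VEH_2d library (3245273 to 4545256 reads) was shallower than every VIC_2d library (5107326 to 7184420 reads). The luminal prostate markers KLK3, KLK2, FOLH1, HOXB13, KRT8 and KRT18, all 6 present, summed to 2047 to 3736 FPKM per library. FPKM counts fragments per kilobase of gene after scaling to the library's size. The sum was 3716 to 3736 FPKM in VEH_7d and 2256 to 2677 FPKM in the treated groups of 7 days, and KLK3, at 2668 to 2697 FPKM in VEH_7d and 1599 to 1863 FPKM in the treated groups, made up most of it. KRT8 went the other way, from 118 to 124 FPKM in VEH_7d to 157 to 170 FPKM in COMBO_7d, and HOXB13 in VIC_7d (99.9 to 107 FPKM) overlapped vehicle (92.1 to 108 FPKM). The part of these shifts in the results that follow was not tested. Markers of other cell types were low in every library, with 5.56 to 10.1 FPKM for 3 leukocyte genes, 1.12 to 2.27 FPKM for 3 fibroblast genes and 0.173 to 0.754 FPKM for 2 endothelial genes. Basal epithelial markers summed to 0.0908 to 2.89 FPKM and neuroendocrine markers to 0.331 to 1.42 FPKM. The leukocyte sum was higher in OLA_7d and COMBO_7d (8.24 to 10.1 FPKM) than in VEH_7d (6.11 to 6.91 FPKM), and CD68 made up nearly all of it, with CD3E at 0 and PTPRC at most 0.0113 FPKM in every library. The basal sum likewise came from KRT14, with KRT5 at 0. The library numbers of OLA_7d and COMBO_7d form a run apart from those of VEH_7d and VIC_7d. A difference that belongs to the run therefore cannot be told apart from olaparib, whereas the effect of VIC-1911 on its own and its effect on top of olaparib each lie within 1 run.

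The promoters of the S to M members are shown because these genes rose most with VIC-1911 at 7 days and are known to share control elements. Each is the 170 bases before the gene's start in RefSeq (GRCh38.p14), read 5′ to 3′ on the strand of the gene. Capitals mark matches on either strand to the CHR element (TTTGAA), the CCAAT box (CCAAT) or an E2F site (searched as TTCCCGC, with the second form TTCGCGC, the next form TTGGCGC and the last form TTGCCGC), and no match overlaps another.
CDK1 (chr10:60778161-60778330, plus strand): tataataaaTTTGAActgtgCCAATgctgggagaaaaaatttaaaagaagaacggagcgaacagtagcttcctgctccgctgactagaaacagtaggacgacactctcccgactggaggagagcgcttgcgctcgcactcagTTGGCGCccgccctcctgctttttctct
CCNA2 (chr4:121823884-121824053, minus strand): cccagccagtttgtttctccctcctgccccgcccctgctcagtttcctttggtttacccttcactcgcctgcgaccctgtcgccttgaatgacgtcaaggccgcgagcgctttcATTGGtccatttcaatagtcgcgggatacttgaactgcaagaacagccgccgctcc
CCNB1 (chr5:69166980-69167149, plus strand): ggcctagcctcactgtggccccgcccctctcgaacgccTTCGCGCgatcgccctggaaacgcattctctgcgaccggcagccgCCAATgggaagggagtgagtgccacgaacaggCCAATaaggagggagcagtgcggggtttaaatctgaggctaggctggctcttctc
CCNB2 (chr15:59104976-59105145, plus strand): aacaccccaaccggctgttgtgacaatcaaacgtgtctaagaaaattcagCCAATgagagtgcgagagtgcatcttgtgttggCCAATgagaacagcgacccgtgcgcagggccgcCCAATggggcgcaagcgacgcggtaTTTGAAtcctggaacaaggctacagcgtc

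CDK1 held 1 match to each of the 3 motifs. CCNB2 held 1 CHR match and 4 CCAAT boxes, 3 of them in the bases shown, at positions -120, -87 and -54 from the start. CCNB1 held 2 CCAAT boxes and 1 E2F site, and CCNA2 held 1 CCAAT box on the opposite strand. In windows of 250 bases before the start, 13.3% of 35116 promoters held the CHR letters, 32% a CCAAT box and 10.9% an E2F site. Among the 7 members in the promoter table, 2, 4 and 2 held them, and CCND3, CCNE1 and CDK4 held none. CCND1, CDK2 and CCNE2 had no entry. Only the letters given were searched, so another form of an element would not be marked. These matches describe letters in a window and are not evidence of binding.

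On the GRCh38 annotation CDK1 lies on chromosome 10 (60778331 to 60794852, plus strand), CCNB1 on chromosome 5 (69167135 to 69178245, plus strand) and CCNE1 on chromosome 19 (29811991 to 29824312, plus strand), and no annotated gene overlaps them. CCNA2 lies on chromosome 4 (121816444 to 121823883, minus strand) and overlaps EXOSC9. CCND1 lies on chromosome 11 (69641156 to 69654474, plus strand) and overlaps LTO1. CDK2 lies on chromosome 12 (55966781 to 55972789, plus strand), wholly within PMEL on the other strand, and CDK4 (57747727 to 57756013, minus strand of the same chromosome) overlaps TSPAN31 and MARCHF9. CCNB2 on chromosome 15 (59105126 to 59125045, plus strand) and CCND3 on chromosome 6 (41934934 to 42050357, minus strand) overlap noncoding genes, and CCNE2 overlaps INTS8 and NDUFAF6. CCNB2, CCND3 and CDK4 also have pseudogenes. The strand setting of the counting is not given in the sources used here, so the values of these 7 overlapping genes are uncertain to the extent that reads were shared.

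After 7 days the levels in vehicle ranged from 3.01 FPKM for CCNE2 to 92.0 FPKM for CCND1. After 2 days CCND1 and CCNB1 stood nearly level in vehicle, at 93.0 ± 4.81 and 91.0 ± 2.29 FPKM (SD, n = 3). In VEH_7d the level of CCND1 was 92.0 ± 2.21 FPKM and that of CCNB1 24.4 ± 7.36 FPKM (SD, n = 3). The tables of the 2 time points were normalized separately, so levels across them are set side by side without a test. Their libraries also fall in separate runs of library numbers, so run and time cannot be told apart.

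Between the vehicle groups, the mean FPKM of every member but CCND1 was at least 1.53 times as high at 2 days as at 7 days, and that of CCND1 was 1.01 times as high. CDK1, the kinase of mitotic entry, read 72.2, 71.2 and 69.2 FPKM in the VEH_2d libraries and 12.7, 9.20 and 11.4 FPKM in the VEH_7d libraries, a ratio of means of 6.39. CCNA2 differed by 5.51 times, CCNB1 by 3.73 times and CCNB2 by 3.53 times. The G1/S members and the G1 member CDK4 differed less, by 2.59 times for CCNE2, 2.58 times for CDK2, 1.54 times for CDK4 and 1.53 times for CCNE1. Between VIC_2d and VIC_7d the same ratio was 1.45 for CDK1, 1.31 for CCNA2 and 1.26 for CCNB1. The ratio was therefore larger for vehicle than for VIC-1911 in these S to M members. FPKM per read count scaled to the library's total differed between the 2 tables by 0.961 to 1.03 times for the members, relative to the median gene. The conversion of counts to FPKM was thus alike for the members in both tables. Being relative to the median gene, this value does not check the scaling between the tables.

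**Figure D1:**
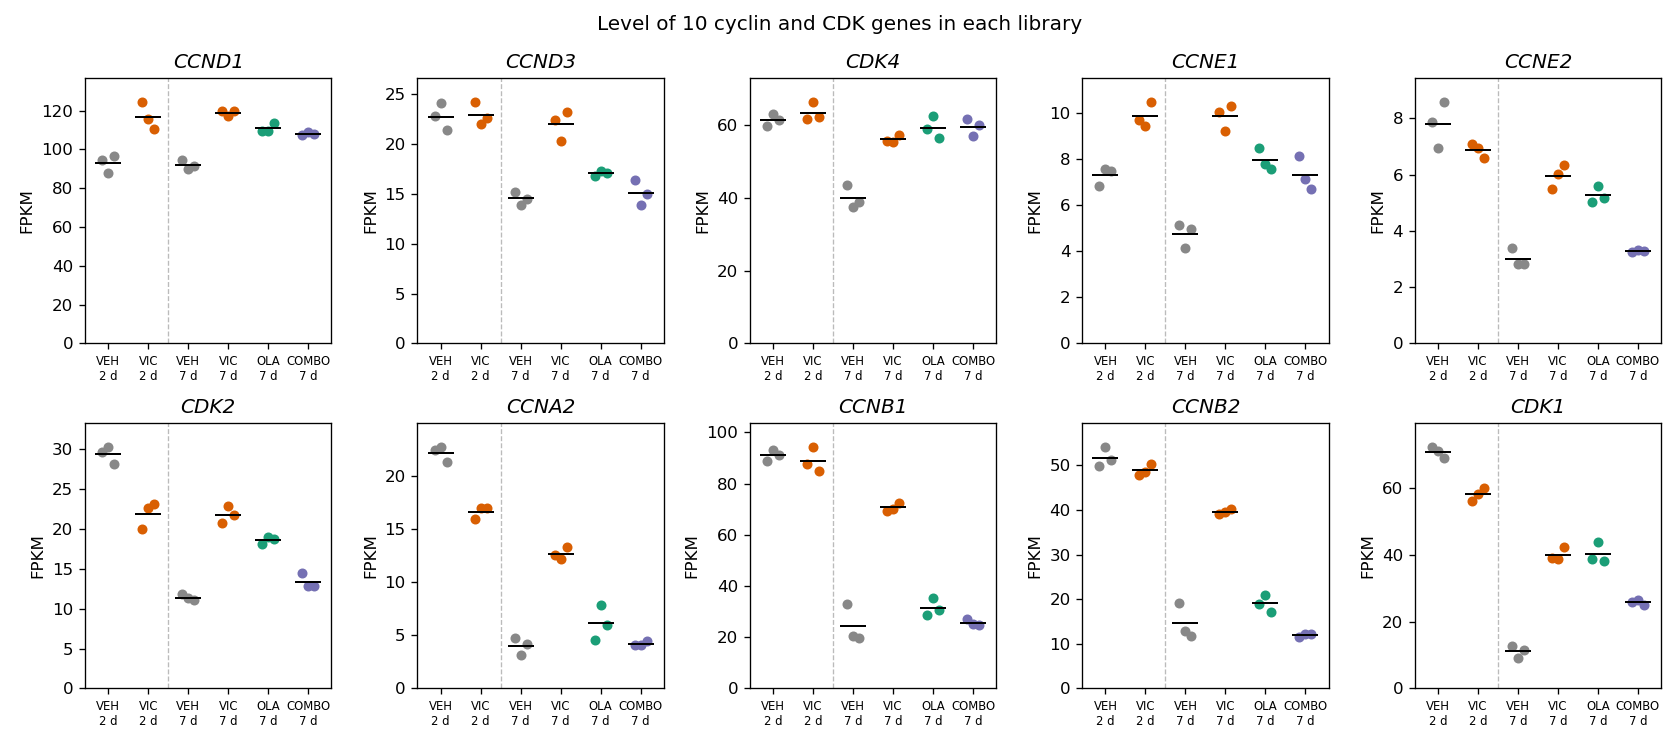
FPKM of each member (vertical axis, from 0) in every library, by group, with 3 points per group, a black line at the group mean, and a dashed line between the 2-day and 7-day tables, which were normalized separately. CDK1, CCNA2, CCNB1 and CCNB2 were lowest in VEH_7d or COMBO_7d, whereas CCND1 stayed between 87.6 and 124 FPKM in all 18 libraries.

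VIC-1911 after 2 days lowered CCNA2, CDK2 and CDK1 and raised CCND1 and CCNE1, each by less than 1.5-fold. CCNA2, the cyclin of S phase and G2, read 22.4, 22.6 and 21.3 FPKM in vehicle and 15.9, 16.9 and 17.0 FPKM with VIC-1911. CDK1 read 56.0, 58.4 and 60.1 FPKM with VIC-1911, and every VIC_2d library lay below every vehicle library for both genes. In edgeR's quasi-likelihood test with Benjamini-Hochberg adjustment over 12241 genes, the log2 fold change was -0.42 for CCNA2 (SE 0.071, adjusted p = 4.74e-05) and -0.26 for CDK1 (SE 0.0494, adjusted p = 0.000277). CDK2, the partner of cyclins E and A, fell from 29.3 ± 1.11 to 21.9 ± 1.70 FPKM (SD, n = 3), without overlap (log2 fold change -0.38, edgeR, adjusted p = 0.000162).

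CCND1, the D cyclin that is most abundant in these cells, read 94.6, 87.6 and 96.8 FPKM in vehicle and 124, 116 and 110 FPKM with VIC-1911, so that all treated libraries were higher. Its log2 fold change was 0.35 (SE 0.0471, edgeR, adjusted p = 9.83e-07), and the call was lost in 1 alternative, limma without a filter on low values. CCNE1, the cyclin E of which 56 to 175 reads were counted per library, rose from 7.29 ± 0.408 to 9.88 ± 0.525 FPKM (SD, n = 3). Its log2 fold change of 0.35 was less secure (edgeR, adjusted p = 0.0345, range over the alternatives 0.0212 to 0.193), and the call was lost with DESeq2 and without VEH_2d replicate 1 or 3 or VIC_2d replicate 1 or 3. CCNB1, CCNB2, CCND3, CCNE2 and CDK4 did not pass, and their log2 fold changes lay between -0.22 and 0.06. The interval for CCNB1, the main mitotic cyclin, was -0.12 to 0.08.

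Of the 10 members 2 were thus higher and 3 lower, where 7.5% of all tested genes were higher and 7.19% lower. The libraries did not overlap for the same numbers of members, against 14.5% of 12237 genes higher and 18.4% lower without overlap. The study's limit of 1.5-fold was reached by no member, against 0.825% of genes higher and 1.33% lower. All 5 calls stood in edgeR at an unadjusted p under 0.05, and DESeq2 called 1 higher and 3 lower.

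VIC-1911 after 7 days raised every member, and the rise was larger from G1 to mitosis. The G1 genes rose 1.25- to 1.47-fold, the G1/S genes 1.85- to 2.04-fold and the S to M genes 2.57- to 3.54-fold. CDK1 read 38.9, 38.9 and 42.5 FPKM with VIC-1911 against 12.7, 9.20 and 11.4 FPKM in vehicle. CCNB1 read 69.5, 70.2 and 72.4 FPKM against 32.9, 20.5 and 19.8 FPKM. In both genes each VIC_7d library exceeded each vehicle library, and VEH_7d replicate 1 stood apart from the other vehicle libraries in CCNB1.

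The log2 fold changes of the S to M members were 1.82 for CDK1 (SE 0.0746, edgeR, adjusted p = 2.02e-18), 1.63 for CCNA2, 1.47 for CCNB1 and 1.36 for CCNB2, the second B cyclin. CCNA2 rose from 4.73, 3.18 and 4.13 FPKM to 12.5, 12.1 and 13.3 FPKM. CCNB2 rose from 19.2, 12.9 and 11.9 FPKM to 39.1, 39.6 and 40.2 FPKM. For both cyclins the groups were well apart, although VEH_7d replicate 1 again held the highest vehicle value.

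Among the G1/S members, CCNE1 and CCNE2, which both encode cyclin E, rose by 1.03 and 0.94 on the log2 scale and CDK2 by 0.88 (edgeR, adjusted p = 7.15e-10, 3.66e-09 and 1.26e-12). CCNE2 read 3.38, 2.81 and 2.83 FPKM in vehicle and 5.48, 6.03 and 6.34 FPKM with VIC-1911. Among the G1 members, CCND3 rose by 0.55, CDK4 by 0.44 and CCND1 by 0.32 (edgeR, adjusted p = 1.15e-08, 6.19e-08 and 4.19e-08). CDK4, the kinase of the D cyclins, read 43.5, 37.6 and 38.9 FPKM in vehicle and 55.6, 55.2 and 57.3 FPKM with VIC-1911, without overlap.

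All 10 members passed as higher, where 26.7% of 14409 tested genes were higher, and all 10 had libraries that did not overlap, against 33.9% of genes. With the study's limit of 2-fold, 5 members (CDK1, CCNA2, CCNB1, CCNB2 and CCNE1) passed as higher, against 3.46% of genes. The median log2 fold change of the members was 0.98, and that of all genes tested was -0.01. Every one of 150 alternative values kept its direction and its call.

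The VIC-1911 effect at 7 days was compared with that at 2 days in 1 fit of the 12 vehicle and VIC-1911 libraries. It was higher at 7 days for 9 members, where 14.6% of 13832 genes were higher, and the difference for CCND1 did not pass. For CDK1 the log2 effects differed by 2.07 and for CCNA2 by 2.04 (edgeR, adjusted p = 3.71e-23 and 2.46e-18). The smallest differences that passed were those of CDK4 at 0.36 and CCND3 at 0.54. CCND1 differed by -0.04, with a 95% interval of -0.16 to 0.09. CDK1, CCNA2 and CDK2 thus fell against vehicle at 2 days and rose against vehicle at 7 days, at a time when the vehicle level itself was lower than in the 2-day table. Each VIC-1911 effect lies within 1 run of library numbers, but the 2-day libraries form a run apart from those of 7 days. A VIC-1911 effect that differed between the runs cannot be told apart from one that differed with time.

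Olaparib after 7 days also raised every member, most of all CDK1 and least the D cyclins. CDK1 read 38.8, 43.9 and 38.1 FPKM, without overlap with vehicle, and its log2 fold change was 1.86 (SE 0.0749, edgeR, adjusted p = 1.03e-18). CCNE2 followed at 0.79, CCNE1 at 0.72, CDK2 at 0.69, CCNA2 at 0.68 and CDK4 at 0.55. CCNA2 read 4.58, 7.80 and 5.96 FPKM, and replicate 1, which rests on 84 reads in the shallowest library of 7 days, overlapped with vehicle.

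CCNB1 and CCNB2 rose by only 0.34 and 0.32 (edgeR, adjusted p = 0.00687 and 0.0106). CCNB1 read 28.8, 35.1 and 30.6 FPKM with olaparib, which overlapped the vehicle values of 32.9, 20.5 and 19.8 FPKM. Both calls were lost with DESeq2 (adjusted p = 0.121 and 0.0776) and without OLA_7d replicate 2, VEH_7d replicate 2 or VEH_7d replicate 3. Both were also lost with limma without a filter (adjusted p = 0.0972 and 0.0678). The call of CCNB1 was lost as well with limma on log2(FPKM + 0.1) (adjusted p = 0.0553). Over all alternatives the adjusted p ranged from 9.62e-09 to 0.140 for CCNB1 and from 2.59e-06 to 0.175 for CCNB2. Without VEH_7d replicate 1 their log2 fold changes were 0.62 and 0.56. CCND1 rose by 0.25 and CCND3 by 0.22 (edgeR, adjusted p = 3.08e-06 and 0.00483), and the call of CCND3 was lost without VEH_7d replicate 2 (edgeR, adjusted p = 0.0566, range over the alternatives 0.00077 to 0.0566).

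All 10 members passed as higher against 28.1% of all tested genes, and 7 had libraries wholly above vehicle against 31.9% of genes. DESeq2 called 8 of them. CDK1 alone passed the 2-fold limit, which 3.63% of genes passed as higher. These values lie across the 2 runs of library numbers at 7 days, so the run and olaparib cannot be told apart here.

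The single drugs were set against each other after their values had been seen. CDK1 stood at 40.3 ± 3.19 FPKM with olaparib and 40.1 ± 2.06 FPKM with VIC-1911 (SD, n = 3), with overlapping libraries and a log2 difference of 0.04 (95% interval -0.10 to 0.17). The cyclins that bind CDK1 differed between the drugs, with all olaparib libraries below all VIC-1911 libraries. Olaparib less VIC-1911 was -1.12 for CCNB1, -1.04 for CCNB2 and -0.95 for CCNA2 on the log2 scale (edgeR, adjusted p = 7.97e-10, 2.01e-09 and 1.16e-07). CCND3, CCNE1 and CDK2 were lower as well, by 0.19 to 0.33, and CCND1, CCNE2 and CDK4 did not pass. In all, 6 members were lower with olaparib, against 12.3% of genes, and 7 had libraries wholly below, against 24.1%. CCNB1 and CCNB2 passed the 2-fold limit, against 0.555% of genes. No member was higher in edgeR, where 11.1% of genes were, nor at an unadjusted p under 0.05, with DESeq2 or with limma. The call of CCNE1 was lost with limma without a filter and without OLA_7d replicate 2 or 3 or VIC_7d replicate 3, and that of CDK2 without OLA_7d replicate 3 or VIC_7d replicate 2. With limma without a filter CCND1 passed as lower (adjusted p = 0.0235, range over the alternatives 0.0235 to 0.437).

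With both drugs CDK1 stayed well above vehicle, CDK4 and CCNE1 rose against vehicle, and CCNA2 and CCNB1 did not pass against vehicle. CDK1 read 25.8, 26.5 and 24.9 FPKM with the combination, above every vehicle library and below every library of either single drug. Its log2 fold change against vehicle was 1.22 (SE 0.0756, edgeR, adjusted p = 2.39e-14). CCNE1 rose by 0.64, CDK4 by 0.57, CCND1 by 0.23 and CDK2 by 0.23 (edgeR, adjusted p = 3.46e-06, 2.48e-10, 1.12e-05 and 0.00436). The call of CDK2 was lost without COMBO_7d replicate 1 (edgeR, adjusted p = 0.0687, range over the alternatives 0.000626 to 0.0687).

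CCNA2 read 4.13, 4.09 and 4.42 FPKM with the combination and overlapped vehicle, with a log2 fold change of 0.09 (95% interval -0.18 to 0.36). CCNB1 read 27.3, 25.0 and 24.9 FPKM and overlapped vehicle too, at 0.05 (95% interval -0.16 to 0.27). CCNB2 read 11.5, 12.2 and 12.2 FPKM and passed as lower, at -0.33 (edgeR, adjusted p = 0.0123). These B cyclin calls rested on VEH_7d replicate 1. Without it CCNB1 passed as higher (0.33, edgeR, adjusted p = 0.000211, range over the alternatives 0.000211 to 0.968) and CCNB2 did not pass (-0.08, edgeR, adjusted p = 0.447, range 0.000163 to 0.447), and the CCNB2 call was also lost with DESeq2 and limma. The log2 fold changes of CCNE2 and CCND3 were 0.12 and 0.06, and neither passed.

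Against vehicle 5 members were higher and 1 lower, where 28.6% of genes were higher and 28% lower, and 5 had libraries wholly above vehicle, against 30.1% of genes. CDK1 alone passed the 2-fold limit, against 4.55% of genes. With both directions pooled, the share of members that passed was thus close to that of all tested genes. By direction, the share of members was larger among the higher and smaller among the lower. This comparison lies across the runs of library numbers.

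**Figure D2:**
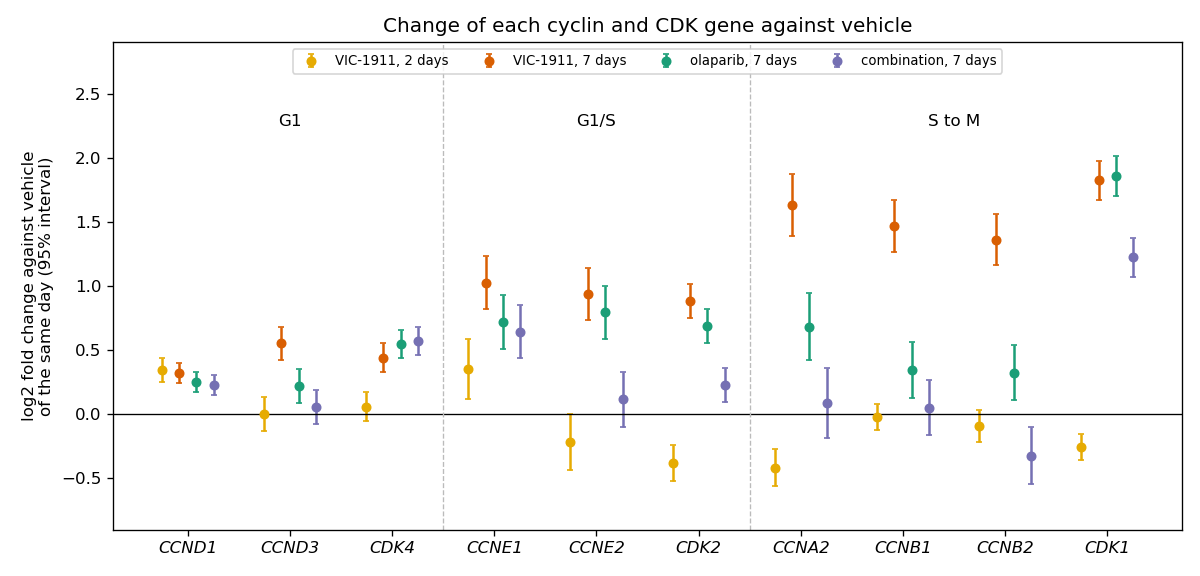
The log2 fold change of each member against vehicle of the same day (vertical axis), with points for the estimate, bars for the 95% interval and colors for the 4 treatments. VIC-1911 at 7 days rises from 0.32 for CCND1 to 1.82 for CDK1, and with olaparib and the combination CDK1 stands at 1.86 and 1.22, apart from CCNA2, CCNB1 and CCNB2.

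When VIC-1911 was added to olaparib, within 1 run of library numbers, members of G1/S and of S to M fell and the G1 genes did not pass. CCNE2 fell by 0.68, CCNB2 by 0.65, CDK1 by 0.64, CCNA2 by 0.59 and CDK2 by 0.46 on the log2 scale (edgeR, adjusted p = 1.39e-05, 9.7e-05, 1.83e-07, 0.0013 and 6.32e-06). CCNE2 read 5.04, 5.60 and 5.18 FPKM with olaparib and 3.26, 3.32 and 3.28 FPKM with the combination, without overlap. The call of CCNA2 was lost with limma and without OLA_7d replicate 2 (edgeR, adjusted p = 0.0524, range over the alternatives 6.56e-09 to 0.175). CCNB1 at -0.29 missed the threshold (edgeR, adjusted p = 0.0629, range over the alternatives 1.01e-05 to 0.428) and passed in 3 of 15 alternatives. CCND1, CDK4 and CCNE1 differed by -0.02, 0.02 and -0.07, and the interval of CCNE1, the widest of these, was -0.26 to 0.12. CCND3 at -0.16 did not pass, but did without COMBO_7d replicate 1 (edgeR, adjusted p = 0.0273, range over the alternatives 0.0273 to 0.275). In all 5 members were lower, against 6.95% of genes, and 8 had libraries wholly below, against 16.2%. No member was higher in edgeR, where 4.55% of genes were, nor at an unadjusted p under 0.05, with DESeq2 or with limma, and 7 were lower at an unadjusted p under 0.05.

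Against VIC-1911 alone the combination was lower in 9 members, where 22.2% of genes were lower, and the libraries of 9 were wholly below, against 29.8% of genes. CCNB2, CCNA2 and CCNB1 fell by 1.69, 1.55 and 1.41 on the log2 scale (edgeR, adjusted p = 3.02e-14, 3.61e-12 and 1.21e-12). These cyclins are the members past the 2-fold limit, which 1.82% of genes passed as lower. CDK1 fell by 0.60 and CDK2 by 0.66. CDK4 passed as higher, at 0.13 (edgeR, adjusted p = 0.0444, range over the alternatives 0.00853 to 0.355), where 20.7% of genes were higher. The calls of CCND1 (-0.10, edgeR, adjusted p = 0.0458, range 0.00222 to 0.224) and CDK4 were lost in 9 and 10 of 15 alternatives, among them every single library left out for CCND1 and each but COMBO_7d replicate 2 for CDK4.

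The interaction of the drugs asks whether VIC-1911 changed a gene by as much in the presence of olaparib as in its absence. Each of its differences lies within 1 run of library numbers, but the runs are not the same. A VIC-1911 effect that differed between the runs therefore cannot be told apart from an interaction with olaparib. The interaction was negative for all 10 members, where 22.9% of genes were lower. The median was -1.48, from -0.35 for CCND1 to -2.46 for CDK1. VIC-1911 raised CDK1 by 1.82 without olaparib and lowered it by 0.64 with olaparib. By phase the interaction lay between -0.72 and -0.35 for the G1 genes, -1.62 and -1.10 for the G1/S genes and -2.46 and -1.76 for the S to M genes, so the 3 groups did not overlap. All 200 alternative values kept direction and call.

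CPM here is reads per gene scaled to the library's size with the TMM factors of the edgeR fits. The balance of G1 and S to M genes in each library was the mean log2 CPM of CCND1, CCND3 and CDK4 less that of CCNA2, CCNB1, CCNB2 and CDK1. It was 0.33, 0.27 and 0.34 in the VEH_2d libraries and 0.73, 0.62 and 0.58 in the VIC_2d libraries, so the treated libraries were higher. In VEH_7d it was 1.85, 2.28 and 2.20, and in VIC_7d 0.99, 0.93 and 0.94, so the direction of the difference between VIC-1911 and vehicle was the opposite at 7 days. OLA_7d gave 1.78, 1.48 and 1.71, between VIC_7d and VEH_7d and without overlap with either. COMBO_7d gave 2.16, 2.05 and 2.10, within the range of vehicle.

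Over the 7-day groups the mean of the G1 genes ranged from 7.21 in VEH_7d to 7.65 in VIC_7d, and that of the S to M genes from 5.10 to 6.69. The mean of the G1/S genes ranged from 4.05 to 4.99, between the same groups. From VEH_7d to VIC_7d the G1 mean was thus higher as well, and the balance was lower with an S to M mean that was higher by more.

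**Figure D3:**
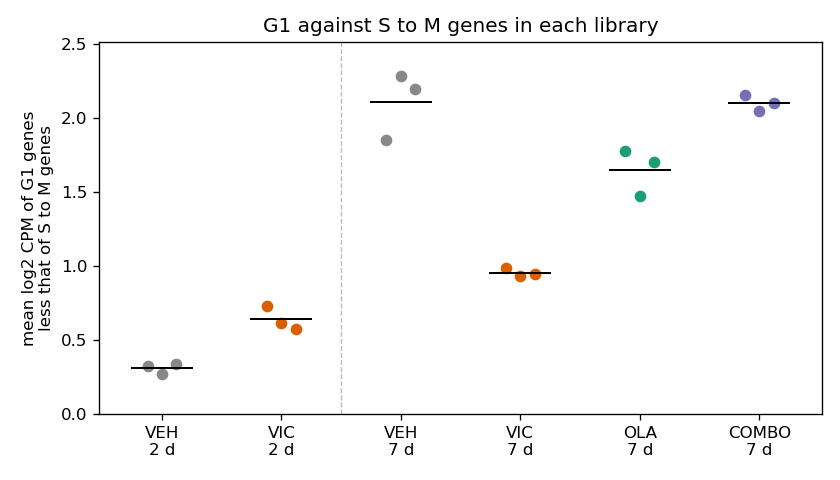
Mean log2 CPM of the 3 G1 genes less that of the 4 S to M genes (vertical axis) in every library, with a black line at the mean of each group. The group means are 0.31 and 0.64 for VEH_2d and VIC_2d, and 2.11, 0.95, 1.65 and 2.10 for VEH_7d, VIC_7d, OLA_7d and COMBO_7d.

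CDK1 stood higher relative to its cyclins in the groups with olaparib, a ratio examined after the values had been seen. The FPKM of CDK1 over that of CCNB1 was 0.385, 0.449 and 0.574 in VEH_7d and 0.560, 0.554 and 0.587 in VIC_7d, and the groups overlapped. It was 1.35, 1.25 and 1.24 in OLA_7d and 0.944, 1.06 and 1.00 in COMBO_7d, above each VEH_7d and VIC_7d library. After 2 days it was 0.759 to 0.814 in vehicle and 0.620 to 0.709 with VIC-1911.

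CDK1 over CCNB2 was 2.12 ± 0.0887 in OLA_7d and 2.14 ± 0.0980 in COMBO_7d, against 0.778 ± 0.159 in VEH_7d and 1.01 ± 0.0394 in VIC_7d (SD, n = 3). CDK1 over CCNA2 was likewise 5.63 to 8.47 in the groups with olaparib and 2.68 to 3.20 in the other groups of 7 days. CDK1 over CDK2 did not separate the libraries in this way, at 0.812 to 1.08 in VEH_7d and 1.70 to 2.31 in the treated groups. The groups with a high ratio of CDK1 to the cyclins are also those of the second run of library numbers at 7 days, and the run and olaparib cannot be told apart.

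**Figure D4:**
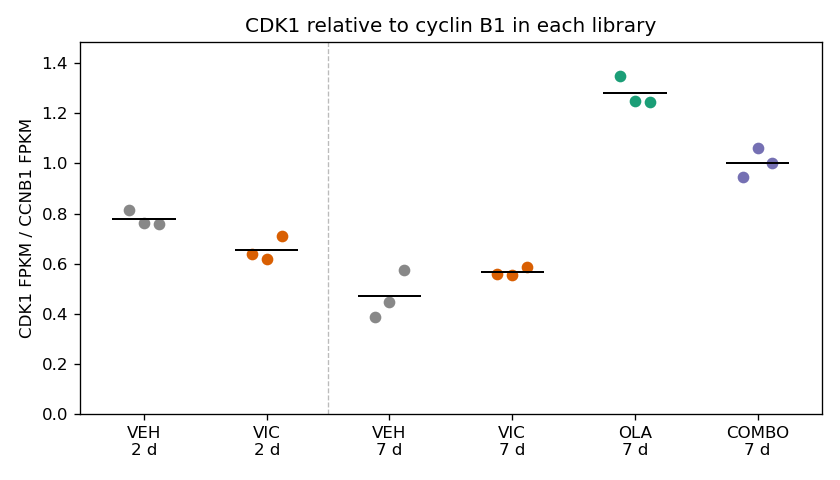
FPKM of CDK1 divided by that of CCNB1 (vertical axis, from 0) in every library, with a black line at the mean of each group. OLA_7d and COMBO_7d lie between 0.944 and 1.35, above the 0.385 to 0.587 of VEH_7d and VIC_7d.

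Within the pairs of related cyclins, CCNB1 stayed 1.51 to 1.94 times as high as CCNB2 in all groups but COMBO_7d, where it was 2.04 to 2.36 times as high. CCNE1 over CCNE2 was 0.868 to 1.09 in VEH_2d and 1.36 to 1.59 in VIC_2d without overlap, where CCNE1 rose and CCNE2 did not pass. After 7 days it was 1.39 to 1.84 in vehicle and under either single drug and above 2.04 in each combination library. CCND1 over CCND3 was 3.64 to 5.25 after 2 days and 5.14 to 7.88 after 7 days. CCND1 over its kinase CDK4 was 2.17 to 2.40 in VEH_7d, 2.08 to 2.16 in VIC_7d, and 1.74 to 2.01 in OLA_7d and COMBO_7d, so that all treated libraries of 7 days were lower than vehicle.

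Genes that act on the cyclins and CDKs were counted from lists, and at most 5 genes that passed in edgeR are named per list and comparison with vehicle, by adjusted p. As the background for these counts, the share of all tested genes that was higher and lower was 7.5% and 7.19% with VIC-1911 at 2 days, 26.7% and 25.7% with VIC-1911 at 7 days, 28.1% and 25.9% with olaparib, and 28.6% and 28% with the combination. No difference between a list and all genes was tested. Of 11 kinases, phosphatases and CKS adaptors that act on the CDKs, VIC-1911 at 7 days raised 9 and lowered none, at a median log2 fold change of 0.97 beside -0.01 over all genes. PLK1, a mitotic kinase, rose by 1.74 and CKS2, a small subunit that binds CDKs, by 1.76. WEE1, which inhibits CDK1, and CDC25B, which activates it, rose by 1.00 and 1.06. Olaparib raised 6 of the 11 (median 0.42). The combination raised 3 and lowered 3 (median 0.11), and these 2 shares of the combination are close to those of all genes. CKS2 rose by 1.30 with olaparib and by 1.11 with the combination. With the combination CDC25C, an activator of CDK1 at mitosis, fell by 0.50 and CKS1B by 0.28. After 2 days of VIC-1911, at a median of -0.09, CDK7, a kinase that activates other CDKs, rose by 0.39, and CKS1B and PKMYT1, an inhibitor of CDK1, fell by 0.50 and 0.35.

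Of 15 genes of cyclin degradation, VIC-1911 raised 2 and lowered 2 at 2 days and raised 11 at 7 days. CDC20, which targets the mitotic cyclins to the anaphase-promoting complex, rose by 0.24 at 2 days and by 1.95 at 7 days. FBXO5, an inhibitor of that complex, fell by 0.47 at 2 days and rose by 0.60 with olaparib. It also stood higher with VIC-1911 at 7 days, at 4.39 to 4.98 FPKM against 2.29 to 3.05 FPKM in vehicle. UBE2S, a ubiquitin-conjugating enzyme of the same complex, rose by 1.22 with VIC-1911 and 0.32 with olaparib. UBE2C rose by 0.97 with olaparib and 0.46 with the combination. With VIC-1911 at 7 days UBE2C read 24.4 to 27.6 FPKM against 8.10 to 10.3 FPKM in vehicle, the highest of the 7-day groups. Olaparib raised 10 and lowered 1. The combination raised 4 and lowered 1, and its 4 raised genes are a share close to that of all genes. The medians were 0.01 at 2 days and 0.41, 0.22 and 0.06 with VIC-1911, olaparib and the combination at 7 days.

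Of 17 transcription factors and pocket proteins of these genes, VIC-1911 lowered 6 at 2 days (median -0.27) and raised 14 and lowered 2 at 7 days (median 0.66). MYBL2 and FOXM1, which drive the genes of G2 and mitosis, fell by 0.39 and 0.33 at 2 days and rose by 1.54 and 1.22 at 7 days. E2F1, which drives the genes of S phase, fell by 0.43 and rose by 1.04, and with olaparib it rose by 0.73 and MYBL2 by 0.86. With the combination MYC and E2F3 rose by 0.68 and 0.61, and RBL2, a pocket protein of resting cells, fell by 0.58. RBL2 also fell with VIC-1911 and olaparib at 7 days, by 0.55 and 0.51. Olaparib raised 12 and lowered 1 (median 0.33). The combination raised 5 and lowered 3 (median 0.07), and its 5 raised genes are a share close to that of all genes.

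Of 8 CDK inhibitors, CDKN1A, which encodes p21, rose in each comparison. It read 54.5 to 56.3 FPKM in VEH_2d and 123 to 134 FPKM in VIC_2d. After 7 days it read 24.3 to 28.5 FPKM in vehicle, 93.0 to 99.8 FPKM with VIC-1911, 210 to 219 FPKM with olaparib and 257 to 260 FPKM with the combination. The 4 groups of 7 days did not overlap, and the log2 fold changes were 1.84, 3.04 and 3.31 (edgeR, adjusted p = 1.21e-22, 5.86e-28 and 8.08e-29). CDKN1B, which encodes p27, fell in each comparison, by 0.25 at 2 days and by 0.21, 0.66 and 0.72 at 7 days. CDKN2C, an inhibitor of CDK4, rose by 0.53 with VIC-1911 and fell by 0.30 and 0.98 with olaparib and the combination. In all, 1 rose and 4 fell at 2 days, and 5 rose and 2 fell, 1 rose and 2 fell, and 1 rose and 3 fell with VIC-1911, olaparib and the combination at 7 days. The 2 of 8 that fell with VIC-1911 and with olaparib are a share close to that of all genes. The medians in this order were -0.30, 0.34, -0.21 and -0.13.

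Of 13 cyclins and CDKs of transcription, which do not serve the cell cycle directly, 3 rose and 3 fell with VIC-1911 at either time. This share is close to that of all genes at 7 days, and at 2 days it is above the 7.5% higher and 7.19% lower of all genes. In the same list 6 rose and 2 fell with olaparib and with the combination. Their medians were 0.06 at 2 days and 0.00044, 0.12 and 0.12 at 7 days. CCNL2, a cyclin of splicing, fell by 0.92 with VIC-1911 at 7 days and CDK19, a kinase of the Mediator complex, rose by 0.28. Of 6 further cyclins and CDKs of the cell cycle, CCNA1, CCND2 and CDK3 were too low to be tested, and CCNB3 was tested only at 7 days and did not pass. CCNF, an F-box cyclin, fell by 0.27 at 2 days and rose by 1.06 with VIC-1911 and 0.57 with olaparib, and CDK6 rose by 0.51 to 0.57 in the groups of 7 days. The drug targets were measured too. AURKA read 5.45 to 8.01 FPKM in VEH_7d and 23.0 to 25.9 FPKM in VIC_7d, and it read 8.23 to 10.1 FPKM in OLA_7d and 6.57 to 7.33 FPKM in COMBO_7d, which overlapped vehicle. PARP1 read 55.1 to 59.9 FPKM in VEH_7d, 84.4 to 90.1 FPKM in VIC_7d, 79.6 to 80.9 FPKM in OLA_7d and 68.1 to 70.8 FPKM in COMBO_7d. In the 2-day table AURKA read 24.7 to 28.1 FPKM in VEH_2d and 30.4 to 31.0 FPKM in VIC_2d. PARP1 read 95.3 to 99.2 FPKM in VEH_2d and 92.5 to 95.7 FPKM in VIC_2d. For both genes the vehicle level was thus lower in the 7-day table.

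The genes most like CDK1 over the 12 libraries of 7 days, among 9816 genes, were POLQ, KPNA3 and GSR, with Pearson correlations of log2 CPM of 0.988, 0.984 and 0.983. Over the 6 libraries of 2 days their correlations with CDK1 were 0.24, -0.22 and -0.74. For CCND1 they were HSPA4, DDIAS and DDX3X, at 0.988, 0.985 and 0.985 over 7 days and 0.97, 0.77 and 0.86 over 2 days. The libraries fall into groups by treatment and share the run of library numbers, so these values describe group differences and carry no test. Among the members, CCNB1 and CCNB2 correlated at 0.967 over 7 days, whereas CDK1 correlated at 0.630 with CCNB1 and at 0.950 with CCND1. Over 2 days CCNB1 and CCNB2 correlated at 0.24, and CDK1 at 0.08 with CCNB1 and at -0.99 with CCND1.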

How the data were processed

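The data were RNA-seq of 18 libraries from C4-2B cells, 3 per group. Per the labels and the study's methods, the authors used Trimmomatic for trimming and STAR for alignment to GRCh38 (STAR 2.6.0 per the submitters' processing notes) and deposited raw gene counts, 1 table per time point. The authors also deposited FPKM values, made with an in-house script. The strand setting is not given in the sources used here. The labels and the methods name different RNA and library kits. No annotation file of the authors was used here, and gene positions are those of the GENCODE annotation and RefSeq.

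Counts were tested with the quasi-likelihood test of edgeR 4.0.16 in R 4.3.3 (TMM scaling, keeping genes counted 10 times or more in 3 or more libraries), 1 fit per time point, with Benjamini-Hochberg adjustment over all genes tested and a threshold of 0.05. One model over the vehicle and VIC-1911 libraries of both time points gave the difference between times. The interaction was the VIC-1911 effect with olaparib less that without it. DESeq2 (the study's tool, run here in version 1.42.0) and limma 3.58.1 on log2(FPKM + 1) and log2(FPKM + 0.1) were alternatives, and so were other scalings, no filter, a replicate block, the compared groups alone and each library left out. The fits were tested on simulated data. The 95% intervals use the SE from the F statistic. A change of 1.5-fold at 2 days and 2-fold at 7 days was the study's limit. All comparisons with vehicle at 7 days share the same 3 vehicle libraries.

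The members and the gene lists were chosen with earlier results of these data known, so a list's count is not independent evidence of its direction. Every member was described. From each list at most 5 genes that passed were named per comparison with vehicle, by adjusted p. The comparison of olaparib with VIC-1911 and the ratios to CDK1 were added after values had been seen. A gene called like CDK1 or CCND1 needed a mean of 10 CPM or more. Depth was 3245273 to 19684208 counted reads per library, and genes of few reads, such as CCNE1 at 2 days and CCNA2 in OLA_7d, are measured less precisely. Some markers of the luminal list are not reported here.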

Additional observations from a re-analysis of the deposited data

Results flagged for a closer look

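The effect of VIC-1911 differed with and without olaparib in all 10 members, by a test of the difference itself (edgeR interaction term over the 12 libraries of 7 days). On the log2 scale the difference was -2.46 for CDK1 (adjusted p = 5.79e-18), -2.23 for CCNA2, -2.01 for CCNB2 and -1.76 for CCNB1. For the genes of the G1/S passage it was -1.62 for CCNE2, -1.35 for CDK2 and -1.10 for CCNE1. For the G1 genes it was -0.72 for CCND3, -0.42 for CDK4 and -0.35 for CCND1 (edgeR, adjusted p = 6.39e-06). Each VIC-1911 effect that enters the difference lies within 1 run of library numbers, but the runs are not the same. An effect that differed between the runs cannot be told apart from an interaction with olaparib.

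The effect of VIC-1911 at 7 days also differed from that at 2 days in 9 members, by the same kind of test over the 12 vehicle and VIC-1911 libraries. The 7-day effect was higher by 2.07 for CDK1, 2.04 for CCNA2, 1.47 for CCNB1 and 1.43 for CCNB2 on the log2 scale. It was higher by 1.25 for CDK2, 1.14 for CCNE2 and 0.66 for CCNE1, and by 0.54 for CCND3 and 0.36 for CDK4 (edgeR, adjusted p from 3.71e-23 for CDK1 to 0.000952 for CCNE1). The 2-day and 7-day libraries also fall in separate runs of library numbers. A VIC-1911 effect that differed between these runs cannot be told apart from one that differed with time.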

How the results depend on the processing

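Of 1410 alternative log2 fold changes of the members, 1330 kept direction and call, 53 lost the call, 7 gained one and 20 changed sign, none with both values past the threshold. The count of members that passed stayed within 1.5 times in all 141 alternatives. For CCND3 at 2 days, log2 fold change 0.0037, the value was -0.018 with upper-quartile scaling, -0.010 with library size alone and -0.0012 with a replicate block. The difference between times for CCND1 was 0.017 with library size alone, and the G1 less S to M difference of the combination and vehicle was 0.0070 on log2(FPKM + 1). With single libraries left out, the ranges that crossed 0 were -0.056 to 0.019 for CCNB1 and -0.054 to 0.053 for CCND3 at 2 days, and -0.11 to 0.25 for CCNA2, -0.11 to 0.33 for CCNB1 and -0.018 to 0.11 for CCND3 for the combination against vehicle. They were also -0.032 to 0.082 for CDK1 between the single drugs, -0.018 to 0.063 for CDK4 between the combination and olaparib, -0.074 to 0.0085 for CCND1 between times, and -0.14 to 0.079 for the G1 less S to M difference. The cause was not tested. Samples that share a replicate number did not vary together (correlation of deviations -0.0461 to 0.154 over 21 pairs, against -0.154 to 0.142 over 42 pairs with different numbers), so the numbers were not taken to pair samples. With the replicate block 7 members in place of 5 were lower in the combination than with olaparib, CCNB1 (-0.32) and CCND3 (-0.18) being added. limma was not run on the difference between times, since the FPKM tables were normalized separately.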
